A study of Mus musculus with 7 samples.

Results

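The genes described here are Mdm2, Cdkn1a, Ccng1, Perp, Ei24, Trp53inp1, Zmat3 and Sesn1, known transcriptional targets of the mouse tumour suppressor p53. The set was named as 10 genes, and its members were taken as the array probe sets whose platform gene symbol is exactly one of those names. The 8 genes above had 92 probe sets, out of 22083 genes with at least 1 probe set. Trp53, the gene of p53 itself, and Bax had no probe set under their symbols in the annotation used and were not analysed here, so the values below are those of target genes and carry no reading of Trp53 RNA. All 8 passed the filter on dim probe sets, with 91 probe sets kept and 1 of Cdkn1a left out, and 16353 genes were tested in all.

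The cells were mouse embryonic stem cells of the J-1 line, whose total RNA was taken after infection with a lentivirus that carried a short hairpin RNA. Mettl3 hairpin 1 was used in 2 samples, Mettl3 hairpin 2 in another 2, and a hairpin against luciferase, a gene that mouse cells lack, in 3 control samples. All 7 samples were thus infected, and each was hybridised to 1 mouse exon array, which reads single exons with separate probe sets. Mettl3 is the enzyme that writes N6-methyladenosine on RNA, and the comparison asks what changes in expression go with its knockdown. Nothing in the labels tells if same-group samples are separate cultures; the p-values thus reflect differences among the 7 samples that may be technical.

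p53 is a transcription factor that is kept scarce by the ubiquitin ligase Mdm2 and accumulates after DNA damage and other stress. It binds a response element built from pairs of a short decamer and raises genes that halt the cell cycle, favour cell death, repair DNA or adjust metabolism, Mdm2 among them, which closes a negative feedback loop. In mouse embryonic stem cells p53 is also known for promoting differentiation after DNA damage through repression of Nanog.

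The p53 decamer was looked for in RefSeq promoter windows (GRCm38.p6) that run from 250 bases before to 50 bases after a gene start. The decamer consensus is its own reverse complement, so a match counts on both strands, and no mismatch was allowed. Of the 8 genes, 5 had windows in the table, 7 windows in all because Cdkn1a and Sesn1 have 2 starts each, and 5 of the 7 windows, at least 1 for each of the 5 genes, held a match. Among all 32851 windows of the same length 8.36% held one. A pair of decamers at most 13 bases apart was present in 0.0731% of all windows and, of these genes, in the upstream start of Cdkn1a. The windows of Ei24, the one of the 8 genes with a called fall, and of Cdkn1a, the gene with the paired decamers, are shown so that they can be read beside the values, with decamers in capitals. Both were chosen for display after the values had been seen. The Ei24 window is chr9:36797285-36797584 on the minus strand and that of Cdkn1a chr17:29090729-29091028 on the plus strand.
Ei24: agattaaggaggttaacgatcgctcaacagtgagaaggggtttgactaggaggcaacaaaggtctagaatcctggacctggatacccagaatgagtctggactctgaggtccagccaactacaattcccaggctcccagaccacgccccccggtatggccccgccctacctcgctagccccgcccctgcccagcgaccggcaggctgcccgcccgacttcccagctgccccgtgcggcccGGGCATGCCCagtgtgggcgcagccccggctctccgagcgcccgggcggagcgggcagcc
Cdkn1a: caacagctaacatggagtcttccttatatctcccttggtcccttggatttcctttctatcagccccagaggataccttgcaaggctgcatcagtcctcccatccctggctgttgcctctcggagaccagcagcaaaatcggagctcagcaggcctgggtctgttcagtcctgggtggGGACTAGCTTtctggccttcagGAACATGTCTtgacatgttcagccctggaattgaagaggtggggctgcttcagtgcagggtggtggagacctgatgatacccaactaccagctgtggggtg
The decamer of Ei24 begins 10 bases upstream of the gene start, and those of Cdkn1a begin 73 and 51 bases upstream. The 10 bases right after the second Cdkn1a decamer differ from the consensus at 1 position and were therefore left in lower case. The window of the other Cdkn1a start held no decamer. The decamers of the other 3 genes begin 186 bases upstream for Mdm2 (chr10:117710935-117710944, minus strand), 185 for Ccng1 (chr11:40755462-40755471, minus strand) and 173 for Sesn1 (chr10:41887266-41887275, plus strand).
Mdm2: GAACTTGCCT
Ccng1: GGGCAAGCCT
Sesn1: AAGCTTGTTT
A match of letters is a description of the sequence and not evidence of binding. Perp, Zmat3 and Trp53inp1 are not in the promoter table.

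The knockdown was read from Mettl3, on the log2 scale of all gene values here. It was at 8.97 and 8.67 with hairpin 1, at 8.71 and 8.66 with hairpin 2, and at 10.38, 10.46 and 10.14 with luciferase. The fall was 2.97-fold for the mean of both hairpins (log2 difference -1.57 ± 0.105, SE, limma adjusted p = 0.000116). Of 12 embryonic stem cell markers, all 12 were tested, and their mean log2 gene value lay between 11.65 and 11.78 with hairpin 1, between 11.76 and 11.79 with hairpin 2 and between 11.75 and 11.86 with luciferase; 1 of them, Fbxo15, fell (-0.50). Of 14 fibroblast markers, which would show feeder cells, 12 were tested and none passed at an adjusted p below 0.05, with list means of 7.56 to 7.74, 7.54 to 7.55 and 7.64 to 7.76 in the same order. Of 5 neural markers 4 were above 0 (median 0.29): Map2 (0.77, adjusted p = 0.00187) and Nes (0.46, 0.0167) rose and Sox1 (-0.39, 0.0488) fell, with list means of 7.89 to 7.97 with hairpin 1, 7.90 to 8.04 with hairpin 2 and 7.61 to 7.74 with luciferase. Of 4 mesoderm markers Kdr fell (-0.44, adjusted p = 0.0323), and none of 5 endoderm markers passed. The part of these markers in the results below was not tested. The hairpin 1 replicate 2 and luciferase replicate 3 arrays stood apart on a component that did not follow the groups (-17.8 and -10.4, against 1.1 to 11.5 for the others). Hairpin 1 replicate 2 gave the lowest of the 7 readings for 5 of the 8 genes, against 21.8% of all genes, and luciferase replicate 2 the highest for 4 of the 8, against 16.8%.

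For the mean of both hairpins, Perp rose and Ei24 fell, and the other 6 genes did not pass. That is 1 of 8 called higher, where 5.53% of all genes were, and 1 of 8 called lower, where 2.37% were; 7.9% of all genes passed in either direction. With each array centred on its median gene, the shares of all genes were 4.26% higher and 4.3% lower, and with quantile normalization 5.09% and 3.13%. The median difference of the 8 genes was -0.14 on the log2 scale, with 3 differences above 0 and 5 below, against a median of 0.00 and 50.1% above 0 for all genes. Their median absolute difference was 0.18, against 0.12 for all genes. In bulk RNA, fewer cells of a type and less RNA per cell cannot be told apart.

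**Figure D1:**
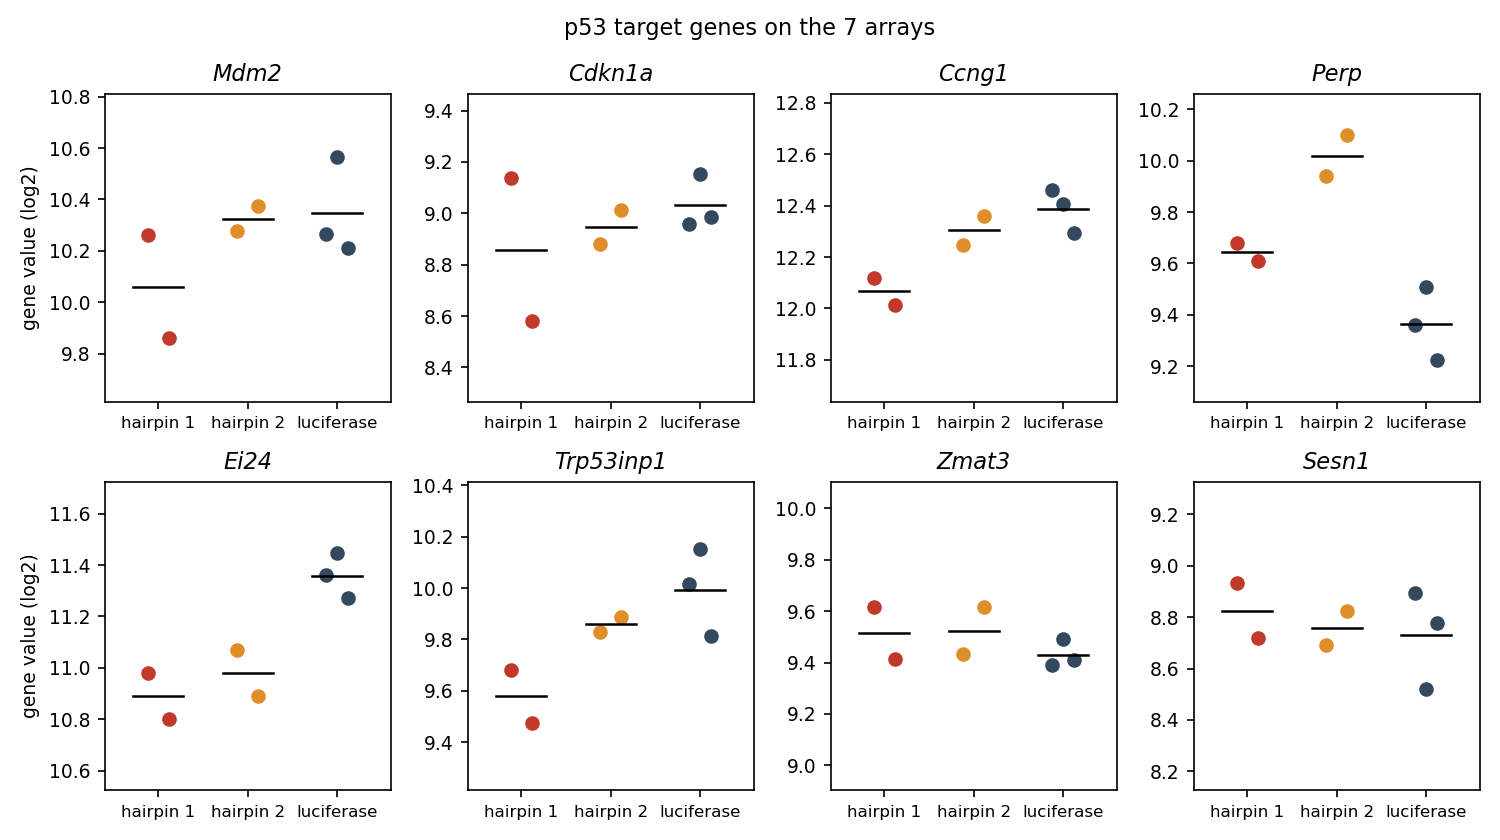
Gene values (log2) of the 8 p53 target genes on each of the 7 arrays, by hairpin, with points for arrays and bars for group means; every panel spans the same range of the log2 scale. Perp is higher and Ei24 lower on all 4 Mettl3 hairpin arrays than on the 3 luciferase arrays, and the other genes overlap between these sets of arrays.

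Perp encodes a membrane protein of desmosomes that takes part in p53-dependent cell death. It was at 9.68 and 9.61 with hairpin 1, at 9.94 and 10.10 with hairpin 2, and at 9.36, 9.51 and 9.22 with luciferase. All 4 knockdown arrays lay above all 3 control arrays, as was the case for 13.4% of all genes, and the hairpin 2 arrays were the highest. The mean of both hairpins was 1.38-fold above luciferase (0.47 ± 0.092, SE, 95% interval 0.26 to 0.67, limma adjusted p = 0.0138). With hairpin 2 the rise was 1.57-fold (0.65, adjusted p = 0.012), and with hairpin 1 the difference was 0.28 (95% interval 0.03 to 0.52, adjusted p = 0.171). The call for the mean of both was lost without hairpin 2 replicate 2 (adjusted p = 0.0613), luciferase replicate 1 (0.0577) or luciferase replicate 3 (0.0506), and that for hairpin 2 without hairpin 2 replicate 1 (0.0578) or replicate 2 (0.147). With the dim probe sets of other genes included, both Perp differences were unchanged and more genes were tested. Both calls were lost as well (limma adjusted p = 0.0572 for the mean of both and 0.0704 for hairpin 2), and the reason was not tested. The middle one of its 5 probe sets, which sets the gene value, had the largest difference of the 5; with the mean of the probe sets instead, the difference was 0.30 (adjusted p = 0.00536).

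Perp is known from epithelia, and 2 of 5 trophectoderm markers, the simple epithelial keratins Krt8 and Krt18, rose too. Krt8 was at 10.40 and 10.49 with hairpin 1, at 9.62 and 9.77 with hairpin 2, and at 9.34, 9.28 and 9.16 with luciferase. Its rise was 1.18 on the log2 scale with hairpin 1 and 0.43 with hairpin 2, and the hairpins differed by 0.75 (limma adjusted p = 0.0448). For Perp the value was the larger one with hairpin 2, but its difference between the hairpins did not pass (limma adjusted p = 0.396). Cdx2 (-0.07), Eomes (-0.15) and Elf5 (0.14), which define the trophectoderm lineage, did not pass. The mean log2 value of the 5 markers was 8.62 to 8.68 with hairpin 1, 8.37 to 8.41 with hairpin 2 and 8.12 to 8.24 with luciferase, and its part in the Perp result was not tested.

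Ei24 encodes a membrane protein of the endoplasmic reticulum that acts in autophagy and was found as a gene induced by p53 during cell death. It was at 10.98 and 10.80 with hairpin 1, at 11.07 and 10.89 with hairpin 2, and at 11.36, 11.45 and 11.27 with luciferase. Each of the 4 knockdown arrays was lower than any luciferase array, as for 8.4% of all genes, and the ranges of the hairpins overlapped. The mean of both hairpins was 1.34-fold below luciferase (-0.43 ± 0.089, SE, 95% interval -0.62 to -0.23, limma adjusted p = 0.0182). Hairpin 1 gave -0.47 (adjusted p = 0.0311) and hairpin 2 gave -0.38 (adjusted p = 0.0859, 95% interval -0.62 to -0.14). The call for the mean of both was lost without hairpin 2 replicate 2 (adjusted p = 0.0766), luciferase replicate 1 (0.0706) or luciferase replicate 2 (0.0614), and that for hairpin 1 without hairpin 1 replicate 1 (0.0724), replicate 2 (0.161), luciferase replicate 1 (0.0921) or luciferase replicate 2 (0.077). All probe sets of Ei24 had passed the filter, so including the dim probe sets of other genes left both Ei24 differences unchanged. Both calls still ended (limma adjusted p = 0.0658 for the mean of both and 0.0925 for hairpin 1).

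Trp53inp1, whose product is a stress protein that promotes p53 activity and autophagy, was at 9.68 and 9.48 with hairpin 1, at 9.83 and 9.89 with hairpin 2, and at 10.02, 10.15 and 9.81 with luciferase. The hairpin 1 arrays lay below all controls, and the hairpin 2 arrays overlapped the lowest control. Its difference was -0.27 ± 0.099 (SE, 95% interval -0.50 to -0.05, adjusted p = 0.125) for the mean of both, -0.42 (95% interval -0.68 to -0.15, adjusted p = 0.0716) with hairpin 1 and -0.13 (adjusted p = 0.588) with hairpin 2. It passed for the mean of both when probe sets were averaged (-0.23, adjusted p = 0.0419), when they were combined by median polish (-0.23, 0.0428), after centring (-0.33, 0.0484) and with quantile normalization (-0.32, 0.0412). These settings call other shares of all genes: 17.4% with averaged probe sets, 15.1% with median polish, 8.56% after centring and 8.22% with quantile normalization. With hairpin 1, Trp53inp1 passed in 7 of 16 alternatives (adjusted p from 0.0276 to 0.0434).

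Ccng1 encodes cyclin G1, a strongly p53-dependent gene whose product binds a phosphatase and acts on Mdm2. It was at 12.12 and 12.01 with hairpin 1, at 12.25 and 12.36 with hairpin 2, and at 12.46, 12.41 and 12.29 with luciferase. Again the hairpin 1 arrays lay below all controls and the hairpin 2 arrays did not. The difference was -0.20 ± 0.081 (SE, 95% interval -0.38 to -0.02, adjusted p = 0.166) for the mean of both, -0.32 (adjusted p = 0.0863) with hairpin 1 and -0.08 (95% interval -0.30 to 0.14, adjusted p = 0.699) with hairpin 2. Its spread within groups was the smallest of the 8 genes (pooled SD 0.081, against a median of 0.119 over all genes). It passed with averaged probe sets (-0.19, adjusted p = 0.035), median polish (-0.15, 0.0475) and centring (-0.26, 0.0496). With hairpin 1 it passed in 4 of 16 alternatives (adjusted p from 0.0154 to 0.0346).

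Cdkn1a encodes the cyclin-dependent kinase inhibitor that carries much of the cell cycle arrest by p53. It was at 9.14 and 8.58 with hairpin 1, at 8.88 and 9.01 with hairpin 2, and at 8.96, 9.15 and 8.99 with luciferase, with the widest spread within groups of the 8 genes (pooled SD 0.216). The hairpin 1 arrays were among the highest and the lowest of the 7, so the groups overlapped. The difference was -0.13 ± 0.127 (SE, 95% interval -0.41 to 0.15, adjusted p = 0.568), and without hairpin 1 replicate 2 it was 0.0086 (adjusted p = 0.97).

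Mdm2 was at 10.26 and 9.86 with hairpin 1, at 10.28 and 10.37 with hairpin 2, and at 10.27, 10.57 and 10.21 with luciferase. Here too hairpin 1 replicate 2 was the lowest array and the other knockdown arrays lay within the range of the controls. The difference was -0.16 ± 0.120 (SE, 95% interval -0.42 to 0.11, adjusted p = 0.465) for the mean of both hairpins, -0.05 without hairpin 1 replicate 2, and 0.01 (adjusted p = 0.904) when probe sets were combined by median polish.

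Zmat3, which encodes an RNA-binding zinc finger protein, and Sesn1, which encodes a sestrin that restrains growth signalling under stress, were the remaining members. Zmat3 was at 9.62 and 9.41 with hairpin 1, at 9.43 and 9.62 with hairpin 2, and at 9.39, 9.49 and 9.41 with luciferase, a difference of 0.09 ± 0.087 (SE, 95% interval -0.11 to 0.28, adjusted p = 0.569). Sesn1 was at 8.93 and 8.72 with hairpin 1, at 8.69 and 8.82 with hairpin 2, and at 8.90, 8.52 and 8.78 with luciferase, a difference of 0.06 ± 0.106 (SE, 95% interval -0.18 to 0.30, adjusted p = 0.775) that was -0.018 with quantile normalization. Both genes overlapped between all groups.

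**Figure D2:**
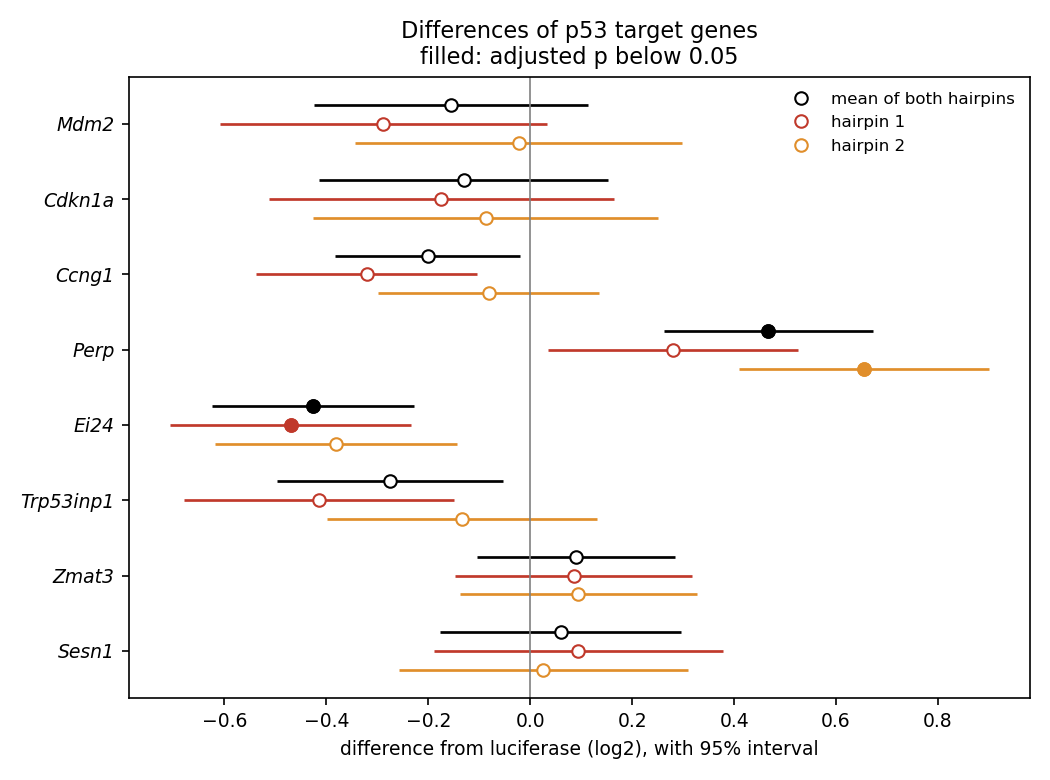
Differences from luciferase (log2) of the 8 genes for the mean of both hairpins, hairpin 1 and hairpin 2, with 95% intervals from limma; filled points have an adjusted p below 0.05. Perp is filled for the mean of both (0.47) and hairpin 2 (0.65), Ei24 for the mean of both (-0.43) and hairpin 1 (-0.47).

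Each hairpin was set against the same 3 luciferase arrays, so the values of the hairpins are not independent. With hairpin 1, 1 of 8 genes passed (Ei24, lower), where 1.93% of all genes were called lower and 5.89% in either direction. The hairpin 1 arrays lay above all controls for 1 gene (Perp, with 20.9% of all genes) and below all controls for 3 genes (Ccng1, Ei24 and Trp53inp1, with 17.3% of all genes). With hairpin 2, 1 of 8 genes passed (Perp, higher), where 2.71% of all genes were called higher and 3.79% in either direction. The hairpin 2 arrays lay above all controls for Perp (22.9% of all genes) and below all controls for Ei24 (15.4%). The median difference of the 8 genes was -0.23 with hairpin 1 and -0.05 with hairpin 2, and for all genes -0.01 and 0.01.

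The difference between the hairpins was tested directly, and none of the 8 genes passed; 0.104% of all genes did. The unadjusted limma p was below 0.05 for 2 of them, Perp and Ccng1. Perp was 0.38 lower with hairpin 1 than with hairpin 2 (log2 difference -0.38, 95% interval -0.64 to -0.11, adjusted p = 0.396), and Ccng1 was at -0.24 (95% interval -0.48 to -0.00, adjusted p = 0.569). Trp53inp1 (-0.28), Mdm2 (-0.27), Ei24 (-0.09), Cdkn1a (-0.09), Zmat3 (-0.01) and Sesn1 (0.07) had 95% intervals that include 0. The hairpin 1 arrays were both below the hairpin 2 arrays for 4 genes (Mdm2, Ccng1, Perp and Trp53inp1), as for 22.2% of all genes.

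Single probe sets showed how evenly a gene moved along its exons. All 17 probe sets of Ei24 were lower with the mean of both hairpins, from -0.67 to -0.06, and for 10 of them the knockdown arrays lay below all controls, where 5.94% of all kept probe sets did. The Ei24 probe set with the largest difference (4940569) was at 9.63 and 9.22 with hairpin 1, at 9.93 and 9.81 with hairpin 2, and at 10.38, 10.57 and 9.99 with luciferase. The one with the smallest (5334093) was at 9.81 and 9.61 with hairpin 1, at 9.69 and 9.54 with hairpin 2, and at 9.47, 9.90 and 9.80 with luciferase, and its groups overlapped. All 5 probe sets of Perp were higher, from 0.13 to 0.47, and 2 of them did not overlap, where 12.2% of all kept probe sets were higher without overlap.

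The genes that did not pass fell into different patterns. Of all kept probe sets, 5.94% were lower without overlap and 12.2% higher without overlap. All 10 probe sets of Ccng1 were lower (-0.25 to -0.07, 5 of them without overlap), as were all 9 of Trp53inp1 (-0.35 to -0.10, 4 without overlap). Zmat3 had 11 of 14 probe sets above 0 (-0.12 to 0.31), 4 of them without overlap. Mdm2 had 10 of 18 above 0, and its gene difference of -0.16 lay away from the median of 0.01 of its probe set differences; the probe set with the largest difference (5295585, -0.43) was at 9.82 and 8.89 with hairpin 1, at 9.874 and 9.996 with hairpin 2, and at 9.94, 10.44 and 9.83 with luciferase. Cdkn1a had 2 of 5 above 0 (-0.23 to 0.18), with 1 lower without overlap. Sesn1 had 4 of 13 above 0 (-0.20 to 0.16), with 1 higher without overlap. The median of the Sesn1 probe sets (-0.05) had the opposite sign to its gene difference.

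Exon usage was tested as the departure of single probe sets from the rest of the gene, with limma's diffSplice. None of the 8 genes passed (adjusted p from 0.698 for Perp to 1), none had an unadjusted p below 0.05, and none passed by the Simes method either (0.302 to 0.966), while 4.97% of all genes passed the F test. Probe sets of 1 gene share their RNA and array and are not replicates.

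**Figure D3:**
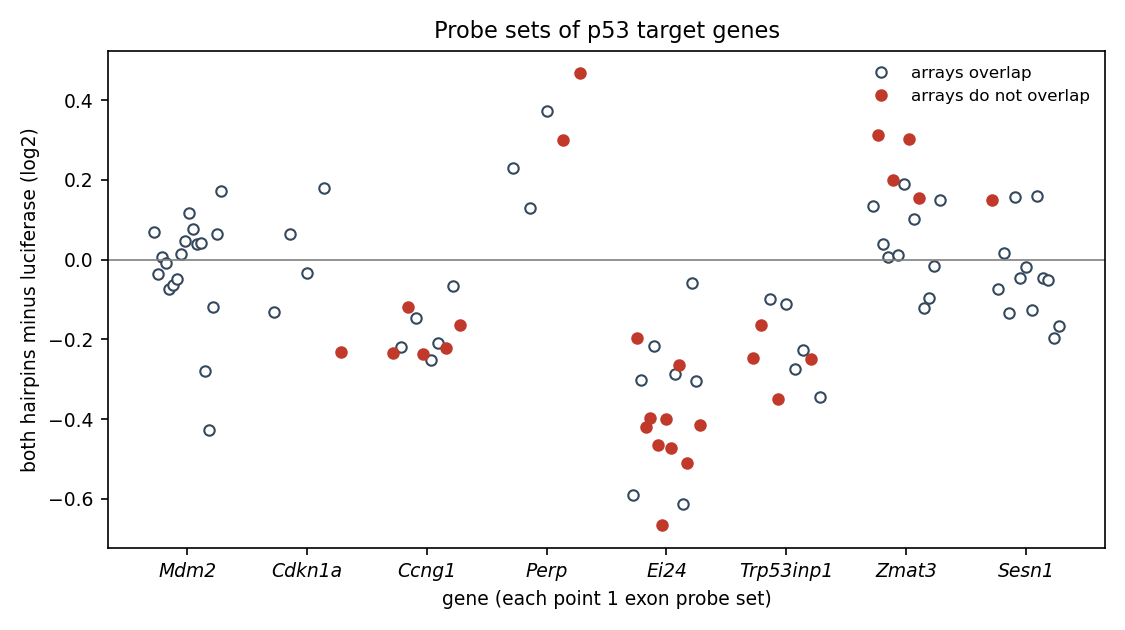
Difference between the mean of both Mettl3 hairpins and luciferase (log2) for each kept probe set of the 8 genes; a filled point is a probe set with no overlap between the 4 knockdown and the 3 luciferase arrays. The points of Ei24, Ccng1 and Trp53inp1 all lie below 0 and those of Perp above 0, while those of Mdm2, Cdkn1a, Zmat3 and Sesn1 lie on both sides.

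Other genes of the pathway were grouped in 5 lists by role, with 64 genes of which 60 were tested. For the mean of both hairpins 3 of the 60 rose and 3 fell, and 26 differences were above 0. Over all genes 5.53% were called higher and 2.37% lower. The share of these genes called higher was near that background. The share called lower was above it, on a count of 3 genes, and this was not tested. The counts in the single lists below are of 2 genes at most. The median was -0.02, against 0.00 for all genes.

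Among 17 tested regulators and relatives of p53, 2 rose and none fell (median -0.08). Hipk2 encodes a kinase that phosphorylates p53. It was at 8.86 and 8.63 with hairpin 1, at 8.77 and 8.92 with hairpin 2, and at 8.06, 8.28 and 8.27 with luciferase, a difference of 0.59 ± 0.096 (SE, limma adjusted p = 0.00602), and it passed with each hairpin (adjusted p = 0.024 with hairpin 1 and 0.016 with hairpin 2). With dim probe sets included, Hipk2 was at 0.36 (adjusted p = 0.0818). Trp53bp1, which encodes a protein that marks DNA double-strand breaks and binds p53, rose by 0.47 (adjusted p = 0.0135), a call that was lost without luciferase replicate 1 (0.0683) or hairpin 2 replicate 2 (0.0502).

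Of 10 cell cycle targets, 1 rose and 1 fell (median -0.07). Sfn encodes the 14-3-3 sigma protein, which holds back entry into mitosis and is known from epithelial cells. It was at 10.06 and 9.68 with hairpin 1, at 9.90 and 9.95 with hairpin 2, and at 9.04, 9.16 and 9.21 with luciferase. Its rise of 0.76 ± 0.102 (SE, adjusted p = 0.00251) was called with each hairpin (0.73 with hairpin 1 and 0.79 with hairpin 2). Of the 5 trophectoderm markers, Krt8 (1.18 with hairpin 1 and 0.43 with hairpin 2) and Krt18 (1.42 and 0.64) rose on the same arrays. Cdx2 (-0.07), Eomes (-0.15) and Elf5 (0.14) did not pass for the mean of both hairpins. The part of these markers in the Sfn result was not tested. Ckap2, a gene of the mitotic spindle, fell by 0.30 (adjusted p = 0.0368), and that call was lost whichever of the 7 arrays was left out (adjusted p from 0.0725 to 0.106).

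Of 14 cell death targets 1 fell and none rose (median 0.01): Dapk1, a gene of a calcium-dependent death kinase. It was at 9.86 and 9.56 with hairpin 1, at 9.80 and 9.83 with hairpin 2, and at 10.34, 10.42 and 10.19 with luciferase (-0.55 ± 0.097, SE, adjusted p = 0.00825), and passed with each hairpin (-0.61 and -0.50). Bbc3 (-0.14), Pmaip1 (0.17) and Fas (-0.11), all known death genes downstream of p53, did not pass; these 3 were named after their values were seen.

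Of 10 tested metabolic and stress targets 1 fell and none rose (median 0.09): Ephx1, which encodes an epoxide hydrolase (-0.41, adjusted p = 0.0245). Its difference was -0.59 with hairpin 1 (adjusted p = 0.0141) and -0.24 with hairpin 2 (adjusted p = 0.29), and with dim probe sets included that for both was -0.31 (adjusted p = 0.375). It was at 8.48 and 8.23 with hairpin 1, at 8.66 and 8.76 with hairpin 2, and at 9.003, 9.008 and 8.83 with luciferase. Its call was lost without hairpin 1 replicate 2 (adjusted p = 0.0586), without either hairpin 2 array (0.0766 for replicate 1, 0.0629 for replicate 2) and without the first or second luciferase array (0.102, 0.0736). None of 9 tested DNA repair targets passed (median 0.00). The largest differences were those of Mgmt, a repair methyltransferase gene (-0.28, adjusted p = 0.121), and Pcna, the sliding clamp gene (-0.17, adjusted p = 0.359). Mgmt was at -0.05 (limma adjusted p = 0.733) with the stricter filter and at -0.42 (0.0941) with dim probe sets included. It passed with averaged probe sets (-0.25, limma adjusted p = 0.026), a setting that calls 17.4% of all genes.

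**Figure D4:**
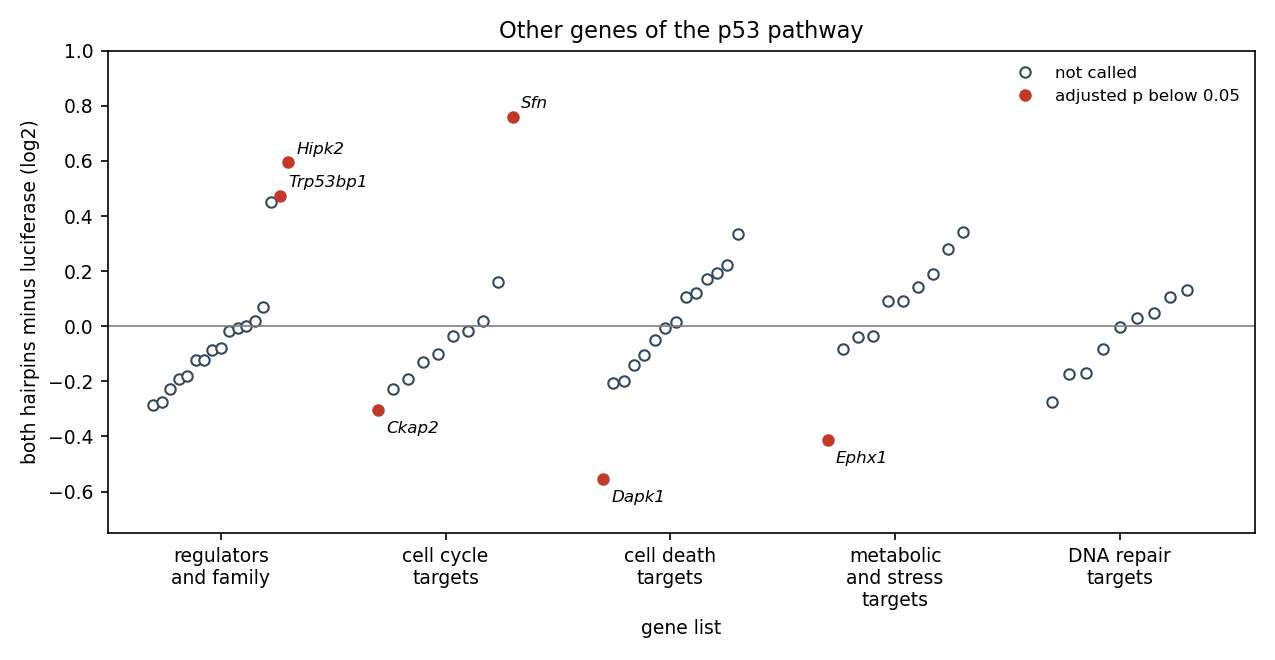
Difference between the mean of both Mettl3 hairpins and luciferase (log2) for 60 other genes of the p53 pathway in 5 lists, sorted within each list; filled points have an adjusted p below 0.05. Hipk2, Trp53bp1 and Sfn lie above 0 and Ckap2, Dapk1 and Ephx1 below 0 among the filled points.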

How the data were processed

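The authors deposited log2 expression values for 1201338 exon probe sets per array; the submitters' processing notes name RMA and R 2.11.1. RMA equalizes the distributions of arrays, which hides any shift shared by most transcripts. The array medians of the values used here were still not level. They ran from 6.03 to 6.07 over all probe sets. Over the gene values they ran from 8.17 (luciferase replicate 3) to 8.30 (hairpin 2 replicate 2). Symbols came from the platform annotation (members by exact symbol; 45560 other probe sets were updated through RefSeq synonyms, GRCm38.p6). Each gene was given, on each array, the median of those probe sets that carry 1 symbol and have a mean above 6.02, the median over all probe sets (at least 3 required; 229811 kept).

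limma 3.58.1 (R 4.3.3; lmFit, eBayes) fitted 1 mean per group to all 7 arrays, with 4 residual degrees of freedom. Calls are at a Benjamini-Hochberg adjusted p below 0.05 over all 16353 genes, and intervals are 95% intervals. The fit and diffSplice were tested on simulated data. The number of arrays limits the precision; scan batches were not examined here. Members, lists and named genes (all members; called genes of each list, otherwise the 2 largest differences) were chosen with earlier results of these data known; a search for genes like Trp53 was not possible, since Trp53 has no value here. The alternatives were filters on dim probe sets, mean or median polish, quantile normalization, centring, eBayes with trend and robust, a replicate block, only the groups compared and leaving out each array.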

Additional observations from a re-analysis of the deposited data

How the results depend on the processing

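For the mean of both hairpins, 2 of the 8 members were called; the count was 0 with no filter on dim probe sets, 1 with the replicate block, 4 with the mean of probe sets, 4 with median polish, 4 after centring (Ccng1 and Trp53inp1 added) and 0 to 2 without single arrays. For hairpin 1 it was 1, against 0 with no filter, 0 with the block, 2 with the stricter filter, 2 with quantile normalization (7.09% of all genes), 3 with the mean, median polish, centring (7%) or trend and robust eBayes (7.89%), and 0 to 2 without single arrays. For hairpin 2 it was 1, against 0 with no filter or the block, 2 with the stricter filter, quantile normalization (3.85% of all genes) or trend and robust eBayes (5.08%), and 0 to 1 without single arrays. Between hairpins it was 0 of 8 by limma in every setting run (2 at an unadjusted p below 0.05), and for exon usage likewise 0 (none at an unadjusted p below 0.05 with the settings used above). Fitting only the groups compared gives no separate value for the mean of both hairpins, which uses all groups. The count of members for the mean of both hairpins was 3 with quantile normalization (8.22% of all genes). With the mean, median polish and stricter filter, the shares of all genes called were 17.4%, 15.1% and 15% for both hairpins. In the same order they were 13.8%, 12.7% and 12.2% for hairpin 1, and 9.94%, 8.8% and 8.74% for hairpin 2. With no filter they were 2.42%, 1.6% and 0.46% for both hairpins, hairpin 1 and hairpin 2. The stricter filter left 12271 genes tested, and no filter 19993.

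All genes called numbered, for both hairpins, 1292, against 2840 (mean), 2469 (median polish), 484 (no filter), 540 (block) and 605 to 1098 (single arrays); for hairpin 1, 964 against 2259, 2072, 320, 460 and 271 to 729 in the same order, and 1503 with the stricter filter; for hairpin 2, 619 against 1626, 1439, 92, 208 and 63 to 577, and 1073 with the stricter filter. Between hairpins there were 17, against 79 (mean), 76 (median polish), 34 (stricter filter), 29 (trend and robust), 0 (no filter), 2 (only the groups compared), 3 (block) and 0 to 4 (single arrays). Of the other pathway genes 6 were called, against 13 (mean), 12 (median polish), 11 (stricter filter), 3 (no filter), 3 (block) and 3 to 5 (single arrays). A hairpin left with 1 array adds nothing to the estimated spread and is assumed to vary like the other groups, so leaving out either array of the other hairpin gives 729 calls for hairpin 1 and 577 for hairpin 2. With the stricter filter 56 of the other pathway genes were tested, against 60 with the settings used above. For both hairpins the shares of all genes called were 17.4% (mean), 15.1% (median polish) and 15% (stricter filter). They were 2.42% with no filter and 3.3% with the block, against 7.9% with the settings used above. The cause of the differences between settings was not tested, beyond the number of genes or samples in each setting.

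The replicate numbers were not shown to pair the samples (correlations of same-numbered deviations -0.26 to 0.08). With the replicate block the Perp difference for both hairpins was 0.40 (adjusted p = 0.0796) and that of Ei24 -0.47 (0.0494). With the 2 numbers of hairpin 1 crossed, chosen after seeing the data, 3 genes and 0 members were called between hairpins.

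Signs turned only among member differences that were not called. Sesn1 for both hairpins was at -0.075 (stricter filter), -0.029 (mean), -0.057 (median polish), -0.018 (quantile) and -0.045 to 0.14 without single arrays; for hairpin 1 at -0.045 (stricter), -0.0062 (median polish) and -0.013 to 0.20 (single arrays). For hairpin 2 it was at -0.10 (stricter), -0.067 (mean), -0.11 (median polish), -0.056 (quantile), -0.037 (centred) and -0.080 to 0.11 (single arrays), and between hairpins at -0.038 to 0.18. Cdkn1a for both was at 0.024 (no filter) and -0.27 to 0.0086 (single arrays). For hairpin 1 it was at 0.079 (no filter), 0.048 (mean), 0.024 (median polish) and -0.45 to 0.10 (single arrays), and between hairpins at 0.11, 0.16, 0.10 and -0.37 to 0.19 in the same settings. Mdm2 for both was at 0.010 (median polish) and for hairpin 2 at 0.029 (mean), 0.043 (median polish) and -0.091 to 0.087 (single arrays). Without single arrays, Zmat3 was at -0.11 to 0.091 between hairpins (also 0.022 with quantile normalization and 0.0015 centred) and at -0.016 to 0.19 for hairpin 1, and Ei24 between hairpins was at -0.18 to 0.00082.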
